A study of Caenorhabditis elegans with 12 samples.

Results

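The 7 heterochronic genes *lin-14*, *lin-28*, *lin-29*, *lin-42*, *lin-46*, *hbl-1* and *daf-12* were followed through RNA sequencing libraries of vIPR, a crosslinking and RNA pulldown method, in *C. elegans*. They were chosen by name and found by gene identifier in the deposited tables. All 7 were found among 46728 worm genes, with 17 of 57819 transcripts. Heterochronic genes set when larval cells divide and differentiate. In larvae, the microRNAs *lin-4* and *let-7* and the *let-7* relatives repress early-acting members such as *lin-14*, *lin-28* and *hbl-1*, so that later programmes follow. The hypodermis and its seam cells are the tissues best known for this control, and *lin-29* acts at the end of the pathway to start the adult programme. None of the genes was a target of the pulldown probes.

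The study sequenced 1 library per condition from young adult worms of 3 strains. BS1080 carries a *gld-1::gfp* transgene beside endogenous *gld-1*, DG3913 carries *gfp::lin-41* and N2 is wild type. From BS1080 there were a total RNA library (labelled as without crosslinking), an input and an elution after PAR-XL, in which RNA labelled with 4SU is crosslinked by long-wave UV, an elution after PFA-XL (paraformaldehyde), and an input and an elution after cXL (short-wave UV without labelling). DG3913 gave a cXL input and elution. N2 gave 1 cXL input and 3 cXL elutions. In BS1080 and DG3913 the biotinylated DNA probes matched *gfp*, and in N2 sets of 10 probes matched endogenous *gld-1*, *lin-41* or *alg-1*. By the study's methods, worms labelled with 4SU grew in liquid culture and were typically harvested after 52 to 53 h, whereas unlabelled worms grew on plates for 44 to 45 h. The title of the total RNA names PAR-XL, but the labels do not state whether its worms had 4SU, so their culture is not known here. An input is lysate taken before the probes were added, so it holds the RNA of whole worms, in which fewer cells of a type and less RNA per cell cannot be told apart.

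Values are TPM, a transcript abundance corrected for length, rescaled to 1000000 over worm transcripts without ribosomal RNA. After this step the total RNA and inputs held 12238784 to 26861047 estimated counts and the elutions 282487 to 18010674. Intervals are 95% and cover counting error only. They leave out the error of dividing reads between transcripts and any difference between cultures, since no condition was replicated, and for that reason no p-value is given. A gene was counted as lower or higher where the ratio of 2 libraries passed 2-fold, with counts under 3 set to 3. A ratio set by that floor is an upper or lower bound and was counted only in the direction it bounds. The floor decides calls and is drawn in the plot of elution ratios, while a ratio resting on 1 or 2 counts is printed below as measured, without the floor, with its counting interval. Only genes with a mean TPM above 1 and at least 10 estimated counts over the 2 libraries were compared.

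*lin-28*, an RNA-binding protein that keeps early larval fates, was the highest of the 7 genes in total RNA and in each of the 4 inputs. It had 41.9 TPM in total RNA, 40.8 in the PAR-XL input, 42.2 in the BS1080 cXL input, 43.7 in the DG3913 cXL input and 38.9 in the N2 cXL input. These 5 levels differed by at most 1.12-fold. It ranked in the top 15.6% to 19.95% of 20449 protein-coding genes by TPM.

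*lin-14*, a nuclear protein of the first larval programme and the classical target of *lin-4*, stood at 36.6 TPM in total RNA, with 34.4 TPM after lysis in the PAR-XL input. It had only 8.39 TPM in the BS1080, 9.97 in the DG3913 and 7.81 in the N2 cXL input. Total RNA and the PAR-XL input lay above all 3 cXL inputs. The gene stood at the top 19.4% of protein-coding genes in the PAR-XL input and at the top 36.1% in the BS1080 cXL input.

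*hbl-1*, a zinc finger transcription factor acting in the next larval stages, varied most, by 10.6-fold between its highest and lowest level. It had 11.3 TPM in total RNA, 6.20 in the PAR-XL input, 1.07 in the BS1080 cXL input, 2.20 in the DG3913 and 2.10 in the N2 cXL input. The counts behind these levels ranged from 75 to 821.

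*daf-12*, a nuclear hormone receptor that links steroid signals to stage progression, reached 22.0 TPM in total RNA, against 12.8 in the PAR-XL input. In the cXL inputs it had 4.20 TPM (BS1080), 7.04 (DG3913) and 4.85 (N2). *lin-42*, the worm relative of the clock gene *period*, was at 14.4 TPM in total RNA but 17.6 in the PAR-XL input, the sole member with a higher level in the input than in total RNA. Its cXL inputs were close together, at 5.99 (BS1080), 6.32 (DG3913) and 6.89 TPM (N2).

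*lin-29*, the zinc finger factor that starts the adult programme, had 11.1 TPM in total RNA, 7.41 in the PAR-XL input, 2.52 in the BS1080, 6.59 in the DG3913 and 2.30 in the N2 cXL input. Here the DG3913 input lay close to the PAR-XL input. *lin-46*, a scaffold-like protein downstream of *lin-28*, was near the limit of detection, with 1.78 TPM in total RNA (38 counts), 1.01 in the PAR-XL input (34), 0.41 in the BS1080 (9), 1.50015 in the DG3913 (23) and 0.40 in the N2 cXL input (5).

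**Figure D1:**
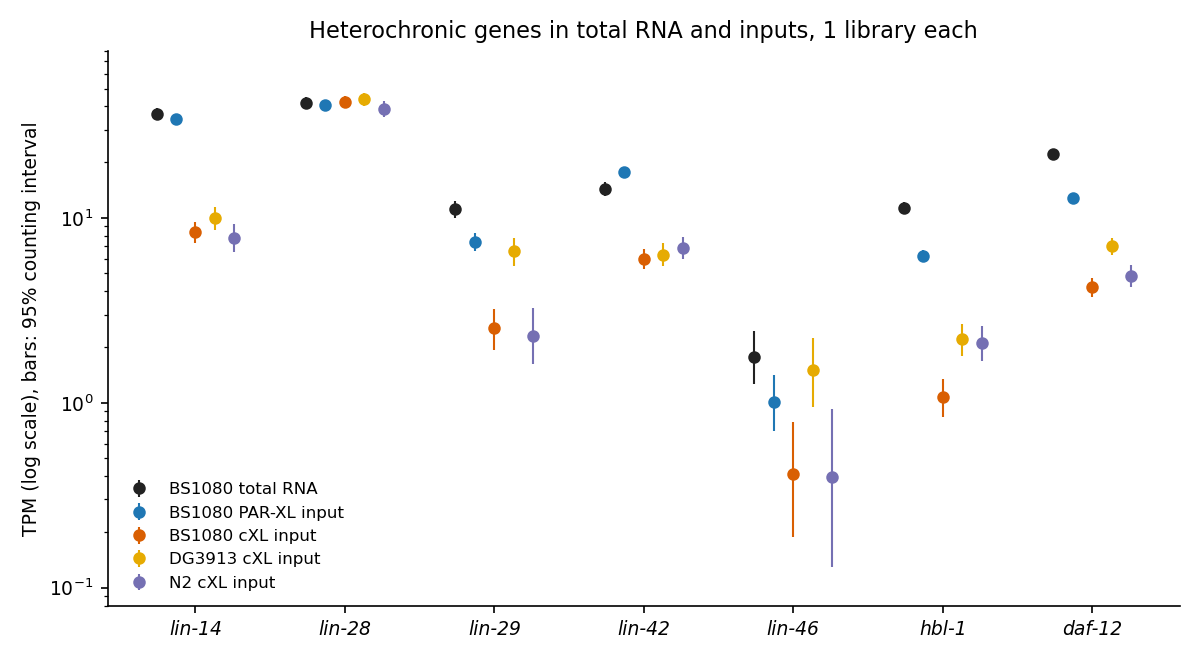
TPM on a log scale of each of the 7 genes in total RNA and the 4 inputs, 1 library per point, with 95% counting intervals as bars. *lin-28* stays between 38.9 and 43.7 TPM, whereas *lin-14* falls from 36.6 and 34.4 TPM to between 7.81 and 9.97 TPM in the cXL inputs.

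In order of level, some neighbours did not differ beyond counting error. In total RNA these were *hbl-1* and *lin-29*, with a ratio of 1.02 (95% CI 0.896 to 1.15), and every other neighbouring pair differed. In the N2 input *lin-14* and *lin-42* (1.13, 95% CI 0.900 to 1.42) and *lin-29* and *hbl-1* (1.10, 95% CI 0.722 to 1.67) could not be separated. In the DG3913 input *daf-12*, *lin-29* and *lin-42* lay at one level, with ratios of 1.07 and 1.04 between neighbours, and *hbl-1* and *lin-46* could not be separated either.

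The first comparison asked what the PAR-XL input keeps of total RNA. None of the 7 genes passed 2-fold, against a background of 12.6% of 15552 genes lower and 2.1% higher in the input. The median gene had a ratio of 0.807, so the members are also placed against it. *lin-14* (0.939, 95% CI 0.865 to 1.02) and *lin-28* (0.974, 95% CI 0.883 to 1.08) were near 1. *hbl-1* (0.548, 95% CI 0.495 to 0.608), *daf-12* (0.583, 95% CI 0.541 to 0.629) and *lin-29* (0.665, 95% CI 0.569 to 0.775) lay below the median gene. *lin-42* (1.23, 95% CI 1.10 to 1.37) stood at the percentile 91.5 of all genes compared. Crosslinking, extraction and fragment length (mean setting 150 bases in total RNA and 220 in the input) differed with lysis and cannot be told apart from it.

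The second comparison set the BS1080 cXL input against the BS1080 PAR-XL input, the same strain grown and crosslinked in different ways. Of the 6 members compared, 5 were lower in the cXL input and none was higher, where 31.4% of 14212 genes were lower and 3.05% higher. The median of the 6 was 0.334 and that of all genes 0.763. The share of members lower was thus above the background, from 6 genes in 1 library each.

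Of these, *hbl-1* fell most, with a ratio of 0.173 (95% CI 0.134 to 0.219) and 75 counts against 680. *lin-14* had 0.244 (95% CI 0.212 to 0.281), from 231 and 1475 counts. These were the members past 4-fold. Further ratios were 0.327 for *daf-12* (95% CI 0.288 to 0.371), 0.340 for *lin-42* (95% CI 0.297 to 0.389) and 0.340 for *lin-29* (95% CI 0.255 to 0.445). *lin-28* stood apart at 1.03 (95% CI 0.939 to 1.137). *lin-46* had too few counts to be compared (9 against 34).

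With another cXL input in the numerator, alternatives chosen after seeing the data, the N2 input also gave 5 members lower, and the DG3913 input gave 3, since *lin-29* and *daf-12* were within 2-fold there. With total RNA as the denominator 6 members were lower. Shares of all genes lower in these alternative pairs are not given here, so these counts have no background beside them. Culture, harvest time, 4SU, crosslinking, spike-ins and fragment length (220 against 285 bases) all differed between these libraries and cannot be told apart.

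**Figure D2:**
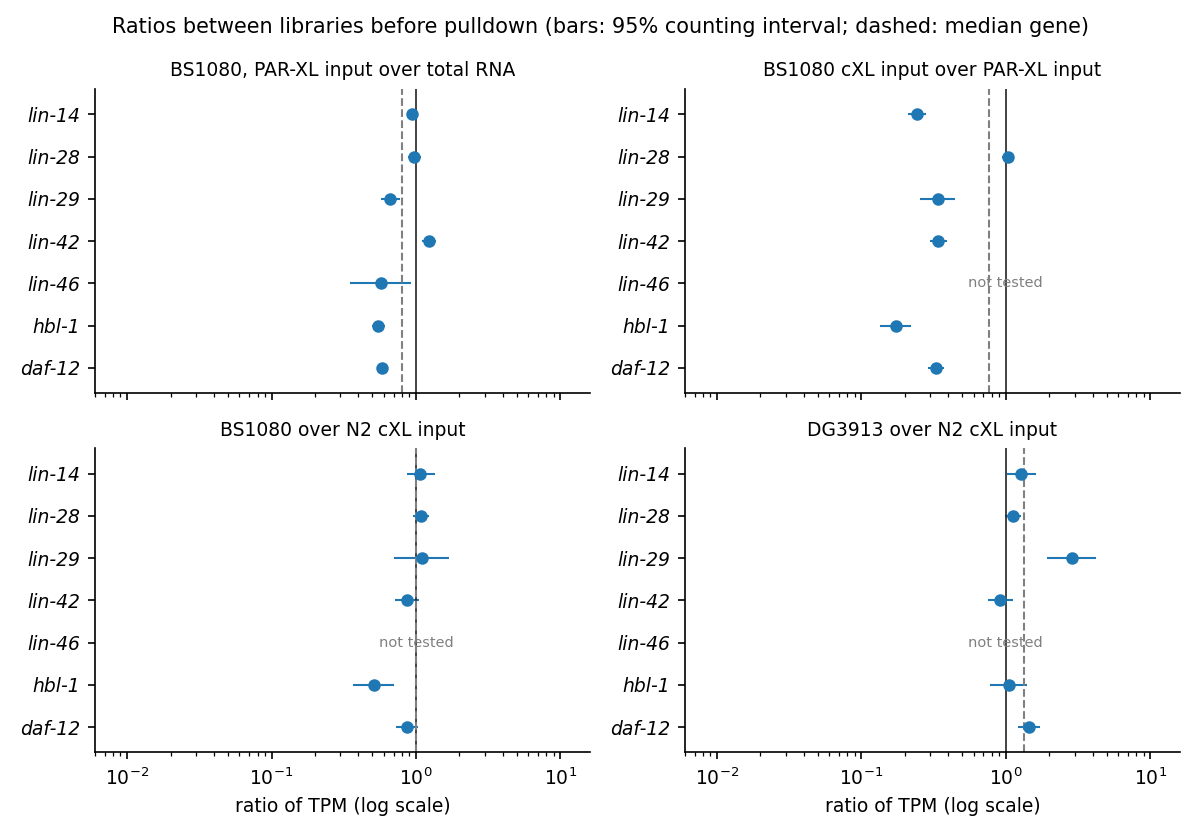
Ratios of TPM on a log scale between libraries taken before the pulldown, with 95% counting intervals as bars, a solid line at 1 and a dashed line at the median gene. For the BS1080 cXL over PAR-XL input, 5 members lie between 0.173 and 0.340 and *lin-28* lies at 1.03.

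The wider pathway was read from a list. Of 28 partner genes on a list of proteins and RNAs known to work with the heterochronic genes, 25 were compared, 3 were lower and 1 was higher, with a median of 0.857. The 3 were *nhr-85*, a nuclear receptor (ratio 0.344), *din-1*, a cofactor of DAF-12 (0.446), and *kin-20*, a casein kinase (0.493). The 1 higher was *daf-36*, an enzyme of the hormone that binds DAF-12 (2.41, from 3.07 to 7.40 TPM).

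Genes at the end of the pathway and genes of the moulting cycle had medians of 0.385 and 0.277. Of 6 downstream genes 4 were lower. These were the blister collagens *bli-1* (0.219) and *bli-2* (0.151), the collagen *col-17* (0.276) and *apl-1*, the worm amyloid precursor relative (0.495). The adult collagen *col-19*, a reporter of *lin-29* activity, was at 0.862, with 2066 TPM in the PAR-XL input and 1780 TPM in the cXL input. All 6 moulting genes were lower, from *mlt-11* (0.132) to *qua-1* (0.392), with a summed level of 69.9 TPM in the PAR-XL input and 18.5 TPM in the cXL input.

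Tissue markers moved as well, and their part in the members' ratios was not tested. Of 5 seam markers compared, 3 were lower and 1 was higher, with a median of 0.396, and their summed level went from 90.3 to 34.5 TPM. *nhr-73* was at 0 in the cXL inputs. Of 6 hypodermis markers 3 were lower, with summed levels of 6023 and 5712 TPM. Of 6 neuron markers 3 were lower (254 and 131 TPM), of 6 sperm markers 4 (median 0.434, 566 and 232 TPM) and of 6 body muscle markers 0 (4202 and 3479 TPM). Germline markers had a median of 1.56 with none past 2-fold (725 and 1155 TPM). Oocyte and embryo markers had a median of 1.69 with 1 higher (2361 and 3435 TPM). Intestine markers split, with 2 lower and 2 higher, and summed to 7575 and 14078 TPM.

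**Figure D3:**
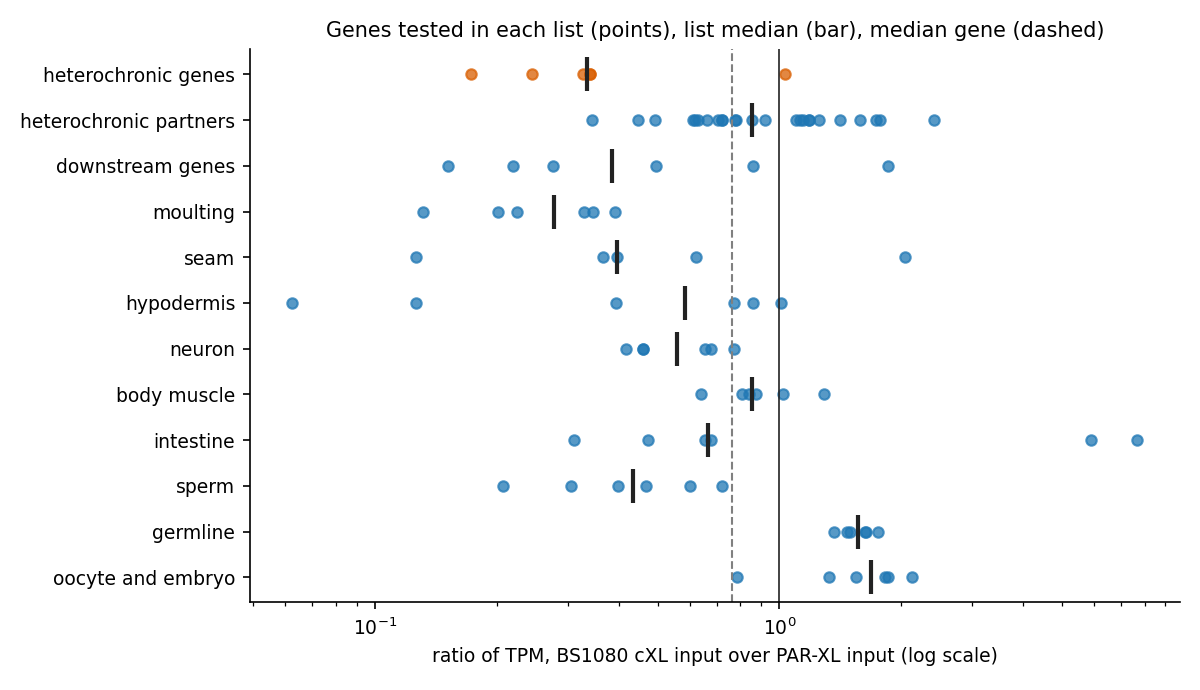
Ratio of TPM on a log scale, BS1080 cXL input over PAR-XL input, for each gene compared in the named lists, with list medians as bars and the median gene as a dashed line. The heterochronic genes (median 0.334) lie with the moulting genes (0.277), downstream genes (0.385), seam markers (0.396) and sperm markers (0.434), and germline markers lie at 1.56.

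Strain was compared among the cXL inputs, which share crosslinking and, by the study's methods, growth on plates. Each strain was a separate culture without replicates, so strain, culture and exact stage cannot be told apart. In BS1080 over N2, 0 of 6 members passed 2-fold, against 1.74% of 12117 genes lower and 5.41% higher. *hbl-1* was closest to the threshold at 0.509 (95% CI 0.368 to 0.703), the percentile 1.93 of all genes. The other 5 had ratios from 0.867 to 1.10. In DG3913 over N2, 0 members were lower and 1 was higher, where 0.853% of 12420 genes were lower and 16.7% higher. The 1 was *lin-29*, with 131 estimated counts against 33.6 and a ratio of 2.86 (95% CI 1.92 to 4.24), the percentile 94.1. *daf-12* was at 1.45 (95% CI 1.22 to 1.73), close to the median gene of 1.33. *lin-46* had 23 counts against 5 and was not compared. Of 6 moulting genes 3 were higher, with a median of 1.85, and their summed level was 18.0 TPM in N2 and 33.5 TPM in DG3913. Neuron markers had a median of 1.77 with 0 of 6 past 2-fold. Downstream genes summed to 2093 TPM in N2 and 1219 TPM in DG3913, of which *col-19* made up 1980 and 1102 TPM. Hypodermis markers summed to 6687 and 3012 TPM, mostly from *col-140* (4654 and 1831 TPM) and *col-19*, which is on that list too. Of 5 hypodermis markers compared, 1 was lower and 1 was higher, with a median of 1.18. Whether any of these bears on *lin-29* was not tested. Endogenous *lin-41* was at 0 TPM in DG3913, where its reads fell on the tagged entry with 146 TPM.

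Deposited values also divide each gene into transcripts, a division estimated by kallisto. This look at transcripts between inputs was chosen after their values had been seen. *lin-28* has 2 transcripts in the index, F02E9.2a of 1044 bases and F02E9.2b of 1195 bases. In a later Ensembl annotation of the same build they differ in the first exon, which lies at 8410663 to 8410804 of chromosome I for F02E9.2a and at 8409684 to 8409920 for F02E9.2b, on the minus strand of WBcel235.

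F02E9.2a made up 90.2% of *lin-28* by TPM in total RNA, a share that was 90.7% in the PAR-XL input. It held 11.6% in the BS1080 cXL input, 15.5% in the DG3913 and 0% in the N2 cXL input. So the gene level of *lin-28* was flat while its transcripts changed places. F02E9.2b went from 4.12 TPM (total RNA) and 3.80 TPM (PAR-XL input) to 37.3 TPM (BS1080), 36.9 TPM (DG3913) and 38.9 TPM (N2). The PAR-XL elution, with 68.6% F02E9.2a from 19 counts of the gene, and the PFA-XL elution, with 75.7% from 122 counts, were nearer to the PAR-XL input. By the study's methods, worms for PFA-XL grew on plates, and both elutions had spike-ins and ribosomal RNA removal by RiboMinus. Whether any of these bears on the shares was not tested. The N2 *gld-1*-probe elution had 6.65% F02E9.2a, from 25 counts.

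The shift between BS1080 inputs was 79.1 percentage points, the percentile 95.9 of 3559 genes with at least 100 counts in both libraries and more than 1 transcript. Of these genes 18.5% moved by over 50 points. *daf-12* also passed 50 points (56.4, percentile 85.9): F11A1.3a had 56.4% in the PAR-XL input and 0% in the BS1080 cXL input, where F11A1.3d held all counts, and 36.5% and 20.7% in the DG3913 and N2 inputs. *lin-42* moved by 38.9 points toward F47F6.1b and *lin-14* by 34.7 points toward T25C12.1a, both inside the common range. In the other comparisons no member passed 50 points, with backgrounds of 6.92% for the PAR-XL input against total RNA, 8.47% for BS1080 against N2 and 7.09% for DG3913 against N2. Shares thus also moved between cXL inputs, and causes of the shifts were not tested.

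**Figure D4:**
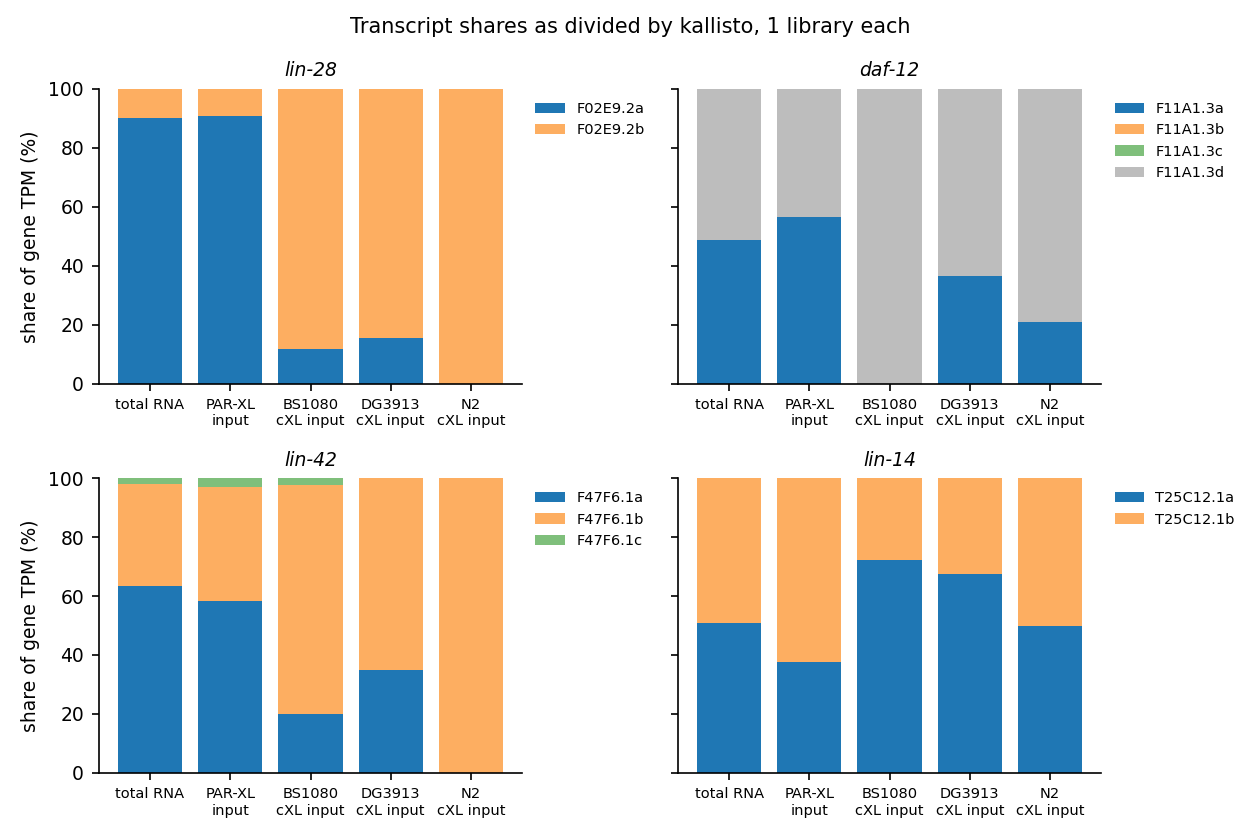
Share of each transcript in the TPM of its gene, in percent, as stacked bars for *lin-28*, *daf-12*, *lin-42* and *lin-14* in total RNA and the 4 inputs, 1 library per bar. F02E9.2a of *lin-28* fills 90.2% and 90.7% of the bars on the left and at most 15.5% of the 3 cXL bars.

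What the index covers bears on these levels. The 1604 bases annotated as 3′ UTR of *lin-14* in that later release (X, plus strand, gene at 11465560 to 11485871) lay outside the indexed transcripts, which end at 11484267, so reads from the part of the mRNA with the *lin-4* sites were not counted. For *lin-28* 172 bases of annotated 3′ UTR lay outside, for *hbl-1* (X, 5822277 to 5827691, plus strand) 64, for *lin-42* (II, 1233244 to 1244035, minus strand) 8 and for *daf-12* (X, 10644407 to 10666869, plus strand) 6. For *lin-29* (II, 11917642 to 11935343, minus strand) and *lin-46* (V, 12968853 to 12970732, plus strand) the indexed spans covered all of it. These bases were compared with transcript spans, not exons. At the 5′ side the later gene spans reach beyond the index for *lin-14* (from 11465560, index from 11468500) and *lin-42* (to 1252359). They also do so for *daf-12* (from 10635908) and *hbl-1* (from 5822142). The sole exon overlap with another gene was 2 bases between *lin-29* and *hmg-12*. The 5 microRNAs *lin-4*, *let-7*, *mir-48*, *mir-84* and *mir-241* had 0 estimated counts in all 12 libraries. These libraries were not made for small RNA, so this says nothing of the microRNAs' levels.

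Pulldown elutions were compared with their inputs as a background measurement, since the probes did not target these genes. The pulled-down transcript filled much of an elution (176397 to 590303 TPM in the 7 elutions), which lowers the TPM of every other gene, and the median gene had ratios from 0.283 to 0.443. The median gene of each pulldown is therefore given beside the members. Where 3 counts stood within 2-fold of the input level or above it, a gene could not be called lower. The shares called lower, of members and of all genes, therefore also depend on depth. Depth was low: of the 7 genes, 6 had at least 10 counts in the PFA-XL elution, 3 in the PAR-XL elution, 2 in the N2 *gld-1*-probe elution and 0 in the other 4.

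In the PAR-XL elution all 6 members compared were lower than in the input, against 46.8% of 13729 genes lower and 3.12% higher. *lin-14* (11.05 TPM, 26 counts, ratio 0.321), *lin-28* (13.6 TPM, 19 counts, 0.333), *hbl-1* (2.05 TPM, 13 counts, 0.330) and *lin-29* (2.11 TPM, 4 counts, 0.285) sat at the median gene of 0.338. *lin-42*, with 3 counts against 1016, was at 0.0407 (95% CI 0.00838 to 0.119), and *daf-12*, with 9 counts against 1335, at 0.112 (95% CI 0.0512 to 0.214). The intervals of both lay below the median gene. The study's reference transcript *tbb-2* went from 797 TPM in the input to 128 TPM in the elution. It fell less than *lin-42* and *daf-12* and further than the other 4. Divided by *tbb-2*, *lin-42* (0.253) and *daf-12* (0.699) stayed below 1, and the other 4 turned to between 1.77 and 2.07. Input and elution came from separate PAR-XL pulldowns by the study's account. Removal of ribosomal RNA also differed, with RiboMinus for the PAR-XL and PFA-XL elutions and RNase H with oligonucleotides against worm ribosomal RNA for inputs. For the other elutions the RNase H oligonucleotides were against human ribosomal RNA. These differences cannot be told apart from the pulldown.

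In the BS1080 cXL elution 2 of 5 members compared were lower and none higher, where 39.6% of genes were lower and 1.96% higher. By the floor of 3 counts, *lin-14*, *lin-29* and *lin-42* could not be called lower there. *lin-28*, with 5 counts, was at 0.282 (95% CI 0.0912 to 0.660), and the median gene was at 0.283. *daf-12*, with 0 counts against 306 in the input, was at least 2.21-fold lower by the floor of 3 counts, and its counting interval reaches up to 0.559. *lin-14*, with 4 counts, was at 0.780 (95% CI 0.211 to 2.02). In the DG3913 cXL elution 1 of 6 was lower, against 35.1% lower and 1.56% higher. This was *lin-28*, with 6 counts and a ratio of 0.353 (95% CI 0.129 to 0.773), and the median gene was at 0.335. *lin-42*, with 5 counts, was at 0.736 (95% CI 0.236 to 1.75), and *daf-12*, with 6 counts, at 0.572 (95% CI 0.209 to 1.26). *lin-29* and *hbl-1* had 0 counts there, and by the floor neither these nor *lin-14* could be called lower. In both elutions the intervals of *lin-28* held the median gene, and divided by *tbb-2* its ratios turned to 2.07 and 1.71.

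The N2 elutions share 1 input. In the *lin-41*-probe elution 2 of 6 members were lower, against 31.3% lower and 4.81% higher, and the median gene was at 0.443. By the floor of 3 counts, *lin-14*, *lin-29*, *lin-42* and *hbl-1* could not be called lower there. *lin-28* had 6 counts and a ratio of 0.318 (95% CI 0.116 to 0.699), which turned to 1.62 when divided by *tbb-2*. *daf-12* had 2 counts (ratio 0.237, 95% CI 0.0285 to 0.868), and *lin-14* and *lin-29* had 0. In the *alg-1*-probe elution, the shallowest with 282487 counts, 0 members were lower and 2 higher, against 20.8% lower and 5.22% higher, and the median gene was at 0.360. These rest on 4 counts of *lin-14* (16.9 TPM, ratio 2.16, 95% CI 0.580 to 5.67) and 5 counts of *hbl-1* (7.32 TPM, ratio 3.48, 95% CI 1.10 to 8.45). The interval of *lin-14* holds 1. No member compared could be called lower there, since 3 counts stood within 2-fold of every input level or above it. With CPM in place of TPM *lin-14* was at 1.36, and with ribosomal RNA kept *lin-14* (1.19) and *hbl-1* (1.91) were both within 2-fold.

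In the *gld-1*-probe elution 5 of 6 members were lower and 1 was higher, where 51.5% of 10623 genes were lower and 3.34% higher. The 1 was *hbl-1*, with 13.2 TPM and 79 counts in the elution against 2.10 TPM and 85 counts in the input, a ratio of 6.26 (95% CI 4.55 to 8.61) and the percentile 99.4 of all genes. Relative to the median gene this was 4.06 on the log2 scale. Both transcripts carried it, with 34.8 estimated counts of F13D11.2a and 44.2 of F13D11.2b. In the other 6 elutions *hbl-1* had 0 counts (BS1080 cXL and DG3913), 2 (*lin-41* probes), 5 (*alg-1* probes), 13 (PAR-XL) and 14 (PFA-XL). Marker genes that were not targets rose further than *hbl-1* in the *gld-1*-probe elution. *cpg-1* had 1797 TPM in the N2 input and 129701 TPM in that elution, and *vit-6* had 7061 and 95392 TPM.

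The other members compared were lower in the *gld-1*-probe elution, where the median gene was at 0.375. *lin-14*, with 1 count against 127, was at 0.0535 (95% CI 0.00134 to 0.304), and *daf-12*, with 1 against 205, at 0.0602 (95% CI 0.00152 to 0.339). *lin-29*, with 0 against 33.6, was at least 2.01-fold lower by the floor, and its counting interval reaches up to 0.638. *lin-42*, with 4 counts, was at 0.205 (95% CI 0.0553 to 0.533) and *lin-28*, with 25 counts, at 0.401 (95% CI 0.257 to 0.601), and both turned when divided by *tbb-2*, to 1.79 and 3.52. The intervals of *lin-42* and *lin-28* held the median gene. Of the 24 partner genes compared there, 12 were lower and 1 was higher, *dcr-1*, which encodes Dicer (2.69, with 841 counts). *dcr-1* was also above its input in the PAR-XL (88.9 against 29.8 TPM), BS1080 cXL (70.0 against 35.2) and N2 *lin-41*-probe elutions (62.6 against 30.7). It was close to its input in the DG3913 (57.6 against 52.2 TPM) and N2 *alg-1*-probe elutions (28.9 against 30.7). Matches of the *gld-1* probes to *hbl-1* or *dcr-1* were not analysed here.

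**Figure D5:**
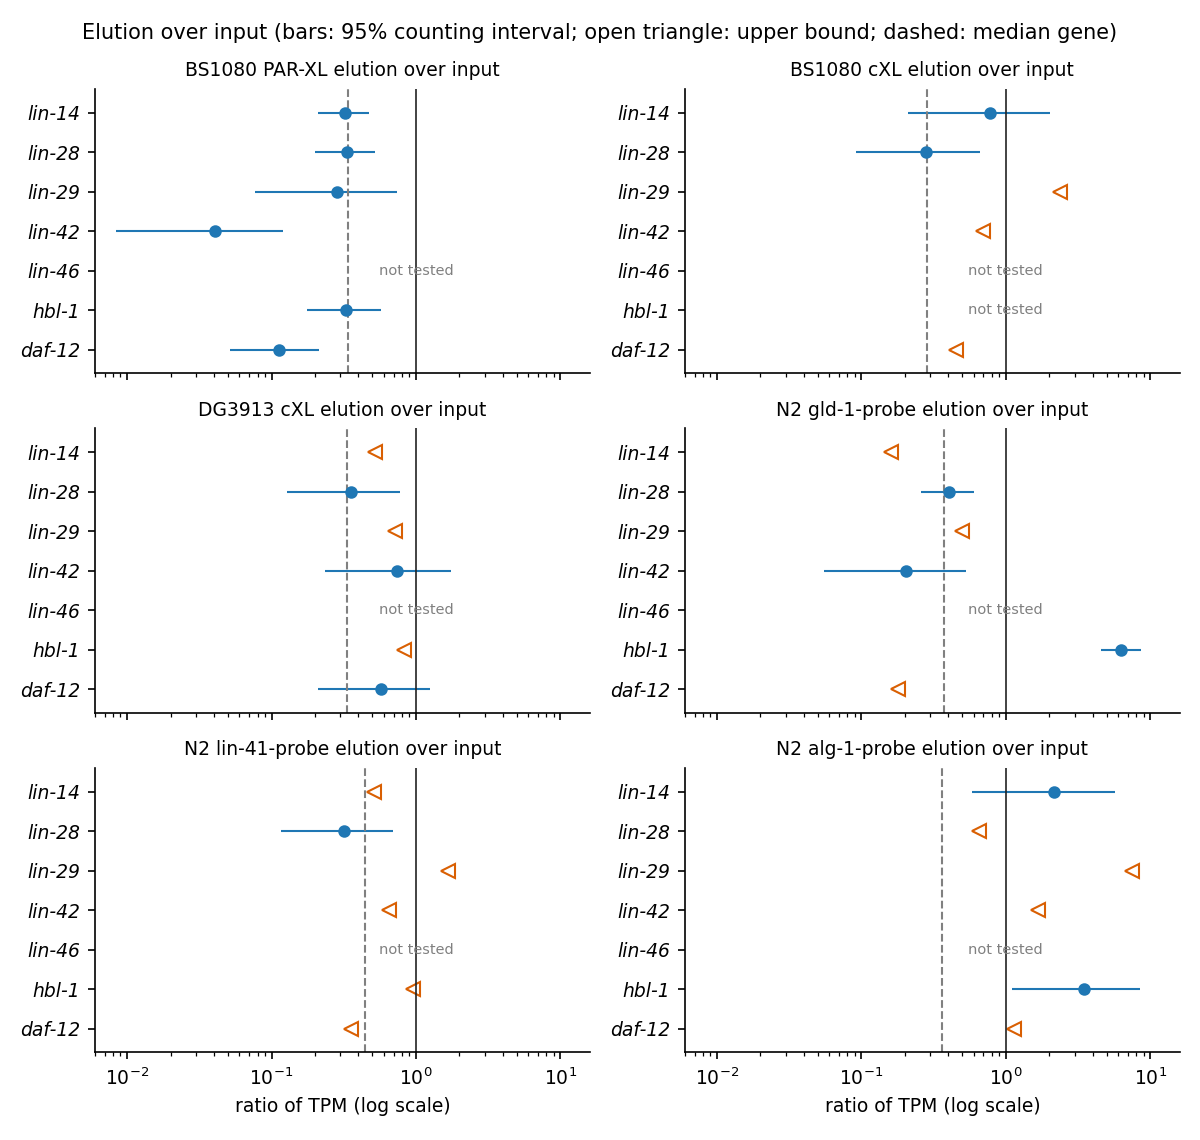
Ratio of TPM on a log scale, elution over input, for each member and pulldown, with 95% counting intervals as bars, open triangles for upper bounds where the elution had under 3 counts, and a dashed line at the median gene. *hbl-1* in the N2 *gld-1*-probe elution stands at 6.26, to the right of the other intervals drawn in that panel, where *lin-46* was not compared.

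The PFA-XL elution has no input here and was set against the PAR-XL elution of the same strain and probes. Of 5 members compared, 1 was lower and none was higher, against 13.6% of 9004 genes lower and 4.35% higher. This was *hbl-1*, with 0.523 TPM (14 counts) after PFA-XL and 2.05 TPM (13 counts) after PAR-XL, a ratio of 0.255 (95% CI 0.111 to 0.589). *lin-14* had 8.98 and 11.05 TPM (112 and 26 counts), *lin-28* 17.4 and 13.6 TPM (122 and 19 counts) and *daf-12* 1.86 and 1.44 TPM (54 and 9 counts). The intervals of their ratios all held 1. *lin-42* (0.627 and 0.716 TPM) and *lin-46* (1 count and 0 counts) were not compared.

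Across the 12 libraries, the genes most like each member were ranked among 11318 genes by Pearson's r of log2(TPM + 1). The libraries differ in culture, depth and pulldown, and these differences enter every r. *lin-14* was most like *slc-36.2* (0.949) and *kmo-1* (0.931), and *lin-29* was at place 6 (0.912). *lin-29* was most like F54E4.3 (0.985) and *irx-1* (0.971), with *lin-14* at place 40. *lin-28* was most like *ule-5* (0.984) and *cht-3* (0.984), *lin-42* like *clec-62* (0.969) and K06A9.1 (0.956), and *daf-12* like *pmp-4* (0.983) and *sek-1* (0.978). *hbl-1* had the lowest best match, *mpz-1* (0.901), followed by F28E10.1 (0.899), and its r with other members was at most 0.397. *lin-46* was under 1 TPM in 2 inputs and was not ranked.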

How the data were processed

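RNA sequencing of 12 vIPR libraries was used, grouped by strain, crosslinking and probes as GEO labels them, with 1 library per condition. Reads were single-end. Per the study's methods and processing notes, the authors demultiplexed with bcl2fastq and pseudo-aligned with kallisto 0.43.1, with worm transcripts of WBcel235 from Ensembl 81 as the index, plus transgene and spike-in sequences where used and, for elutions with human carrier RNA, GENCODE release 24. Whether counting used strand is not given in the sources used here. The authors deposited estimated counts, which are not normalized, and TPM summing to 1000000 over the whole index. Human, spike-in and ribosomal RNA rows (22 genes) were left out, TPM were rescaled and both units were summed per gene, with transgenes kept apart. Symbols matched 43693 of 46748 gene identifiers.

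Ratios of 2 libraries carry 95% counting intervals, exact Poisson for levels and conditional binomial for ratios. Genes named are the 7 members, a list of 28 partners, 5 microRNAs, 6 downstream genes, marker lists of 6 genes each and the 2 genes most like each member. Members and lists were chosen with earlier results of these data known. In all, 11 comparisons were made, with 10 alternatives planned and 3 added after seeing the data. The rule that a bounded ratio counts only in its own direction was set after seeing the data. Simulated counts took gene means from the N2 cXL input and totals from the libraries compared. Only genes well counted in that input were altered. For BS1080 over N2, 100 of 100 genes raised and 99 of 100 lowered 8-fold were found among 11115, with 56 calls among unchanged genes. For the *gld-1*-probe elution over its input, 100 and 95 were found among 11106, with 337 calls among unchanged genes. In the real elution *gld-1*, *cpg-1* and *vit-6* took many of the counts, so other genes had fewer than simulated. The simulated rates therefore do not carry over to that elution. The analysis ran in Python 3.11.15, with scipy 1.17.1 for intervals, pandas 2.3.3 and numpy 2.4.6 for tables, and matplotlib 3.10.9 for plots. Probe, genome and transcript sequences, small RNA libraries and proteomics were not analysed here.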

Additional observations from a re-analysis of the deposited data

Results flagged for a closer look

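*hbl-1* was higher in the N2 *gld-1*-probe elution than in the N2 input (ratio 6.26), whereas it was lower in the PAR-XL elution than in its input (ratio 0.330), and it was also higher in the N2 *alg-1*-probe elution (ratio 3.48, from 5 counts). By TPM these pulldowns lay on opposite sides of 1, with 1 library each. The PAR-XL ratio of *hbl-1* was at that of the median gene (0.338), and divided by *tbb-2* it was 2.05. The difference between the pulldowns was not tested.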

How the results depend on the processing

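Leaving out a replicate was not possible with 1 library per condition. No paired analysis was possible because no condition was replicated. Counts of members past 2-fold were recomputed under each alternative. Shares of all genes under the alternatives are not given here, so these counts have no background beside them. At 4-fold, 2 members passed in the cXL over PAR-XL input and in the PAR-XL elution, and 0 in the DG3913 over N2 input, the BS1080 cXL, DG3913, *lin-41*-probe and *alg-1*-probe elutions and the PFA-XL elution. With a mean TPM above 10, 2 passed in the cXL over PAR-XL input and in the PAR-XL elution, 0 in the DG3913 over N2 input and the PFA-XL elution, and 1 in the BS1080 cXL, *gld-1*-, *lin-41*- and *alg-1*-probe elutions, where fewer genes were compared. Without the filter 2 passed in DG3913 over N2. The DG3913 input in place of the BS1080 cXL input gave 3.

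Elution counts depended on the unit and the scaling. CPM gave 4 (BS1080 cXL), 6 (DG3913) and 5 (*lin-41* probes), where the median gene was at 0.138, 0.115 and 0.168. With ribosomal RNA kept, these counts were 4, 5 and 4, and the median gene was at 0.172, 0.206 and 0.233. That setting also gave 1 for the *alg-1* probes and 1 for BS1080 over N2. A pseudocount of 1 TPM gave 4 (DG3913), 5 (*lin-41* probes) and 4 (*alg-1* probes). Leaving out 3 entries that overlap ribosomal RNA gave 1 for BS1080 cXL. With the target left out they were 2 (PAR-XL) and 0 (BS1080 cXL, DG3913, *lin-41* probes). Divided by the median ratio, they were 2 (PAR-XL), 1 (BS1080 cXL, now higher), 1 (DG3913, now higher), 3 (*gld-1* probes, 2 lower and 1 higher) and 0 (*lin-41* probes). Divided by *tbb-2*, they were 1 for the PAR-XL input over total RNA, 3 (PAR-XL, 1 lower and 2 higher), 2 (BS1080 cXL), 2 (DG3913), 2 (*gld-1* probes) and 0 (*lin-41* probes). The 2 in each of the BS1080 cXL, DG3913 and *gld-1*-probe elutions were higher, where TPM gave 2, 1 and 5 lower, with 1 higher for the *gld-1* probes. The PAR-XL elution had 6 lower by TPM.

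Direction turned for 12 member ratios, all in elutions. Divided by *tbb-2*, PAR-XL ratios turned to 1.999 (*lin-14*), 2.07 (*lin-28*), 1.77 (*lin-29*) and 2.05 (*hbl-1*). *lin-28* turned to 2.07 (BS1080 cXL), 1.71 (DG3913), 3.52 (*gld-1* probes) and 1.62 (*lin-41* probes), *lin-42* to 1.79 (*gld-1* probes), and the upper bound of *daf-12*, with its 2 counts set to 3, to 1.82 (*lin-41* probes). Divided by the median ratio, *lin-28* turned to 1.05 (DG3913) and 1.07 (*gld-1* probes). The *hbl-1* ratio with *gld-1* probes stayed above 2 under every other unit, scaling and pseudocount tried, and it was not compared with a mean TPM above 10. Causes were not tested. With 1 library per condition and 0 to 6 members at 10 counts per elution, depth and unreplicated cultures limit all values.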
